A study of Mus musculus with 24 samples.

Results

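The MAPK phosphatases and the Sprouty, Spred and Etv5 genes are negative-feedback and output genes of the RAS-RAF-MEK-ERK pathway, and their transcripts were followed in MIN6 cells after verapamil. The 10 genes Dusp1, Dusp4, Dusp5, Dusp6, Dusp10, Spry2, Spry4, Spred1, Spred2 and Etv5 were selected by symbol from the 12310 genes of the count table, and all 10 were present and passed the filter on low counts. MIN6 is a mouse insulinoma line that serves as a model of the β-cell. It is a single tumor-derived line labelled wild-type (WT), so all libraries share 1 genetic background. Cells were held at 5.6 mM glucose and either left untreated (control, 12 libraries) or exposed to 50 µM verapamil, an L-type calcium channel blocker, for 24 h (12 libraries), and RNA was then sequenced. The libraries fall into 4 experiment sets of 3 per group, assigned by the first digit of the label's description, which the sources do not explain. The headings C11, C12, V11 and V12 match several sample names, so these 4 columns were used as unnumbered replicates of their group and, by elimination, in set 4. Whether the replicates of a set are separate cultures is described differently in the paper and in the deposited design, so p-values over 12 libraries may measure technical spread in part.

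As background, a growth factor receptor or calcium entry switches on RAS, RAF, MEK and ERK in turn, and active ERK drives the transcription of genes that then shut it off. The dual-specificity phosphatases (Dusp genes) remove phosphate from ERK, JNK or p38 kinases, Sprouty proteins act between the receptor and RAF, and Spred proteins bring the RAS-inactivating protein neurofibromin to the membrane. Etv5 is a transcription factor of the PEA3 group of ETS proteins, a common readout of receptor tyrosine kinase signaling. In β-cells, glucose and calcium entry through voltage-gated channels are known activators of ERK.

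Promoter sequence upstream of the transcription start is shown for the 4 genes that carry a site of a calcium-responsive or ERK-responsive transcription factor, to give the sequence context of genes whose levels follow. The letters are from RefSeq on GRCm38.p6, the strand is that of the gene, and capitals mark the site. RefSeq promoter windows reaching from 250 bases before to 50 bases after the start were used for 8 of the 10 genes, in 9 windows; Dusp4 and Spry4 are not included. The cAMP and calcium response element (CRE, TGACGTCA) was found in 1 of the 9 windows and in 1.79% of all 32851 windows, and its site in Dusp1 begins 143 bases before the start.
Dusp1, chr17:26508597-26508626, minus strand: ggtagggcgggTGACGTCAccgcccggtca
The CArG box, the site of serum response factor, was found in 1 of the 9 windows and in 1.63% of all windows. Dusp5 carries 2 CArG boxes that directly follow each other, beginning 82 and 72 bases before the start.
Dusp5, chr19:53529058-53529087, plus strand: aatacCCATATTTGGCCTTATATGGgcact
The octamers of Capicua (TGAATGAA, TGAATGGA, TCAATGAA or TCAATGGA, either strand), a repressor that ERK activity removes from Etv and Spry genes, were found in 2 of the 9 windows and in 3.84% of all windows. Both sites shown lie on the opposite strand and so read as reverse complements.
Dusp6, chr10:99263196-99263225, plus strand: gagagaatgtaTCCATTGAgacgctggctg
Spry2, chr14:105896855-105896884, minus strand: tcggcctcttgTTCATTGAgaaaaaaaaaa
The AP-1 letters TGANTCA were found in 0 of the 9 windows and in 7.81% of all windows. A letter match is a description of these windows and not evidence of binding.

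The response of the group to verapamil was small and mixed. Of the 10 genes, 3 rose (Spry2, Spred2 and Dusp1), 2 fell (Spred1 and Dusp10) and 5 did not pass the test, at an adjusted p under 0.05 in edgeR's quasi-likelihood test adjusted over 12306 genes. This is a share of 50.0% against 62.8% of all genes tested, with 31.2% of all genes higher and 31.6% lower. The log2 fold changes (verapamil minus control) ran from -0.45 for Spred1 to 0.41 for Etv5, with a median absolute value of 0.20, against 0.30 over all genes. In none of the 10 genes did the 12 verapamil libraries separate from the 12 control libraries, whereas 10.1% of all genes tested showed such a separation. Levels are given in CPM, counts scaled to a common library total. Total counts were 12590476 to 32360171 in the control and 21840159 to 44806556 in the verapamil libraries. Dusp6 and Etv5 were the least deeply counted of the 10, with 31 to 172 and 18 to 115 reads per library.

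**Figure D1:**
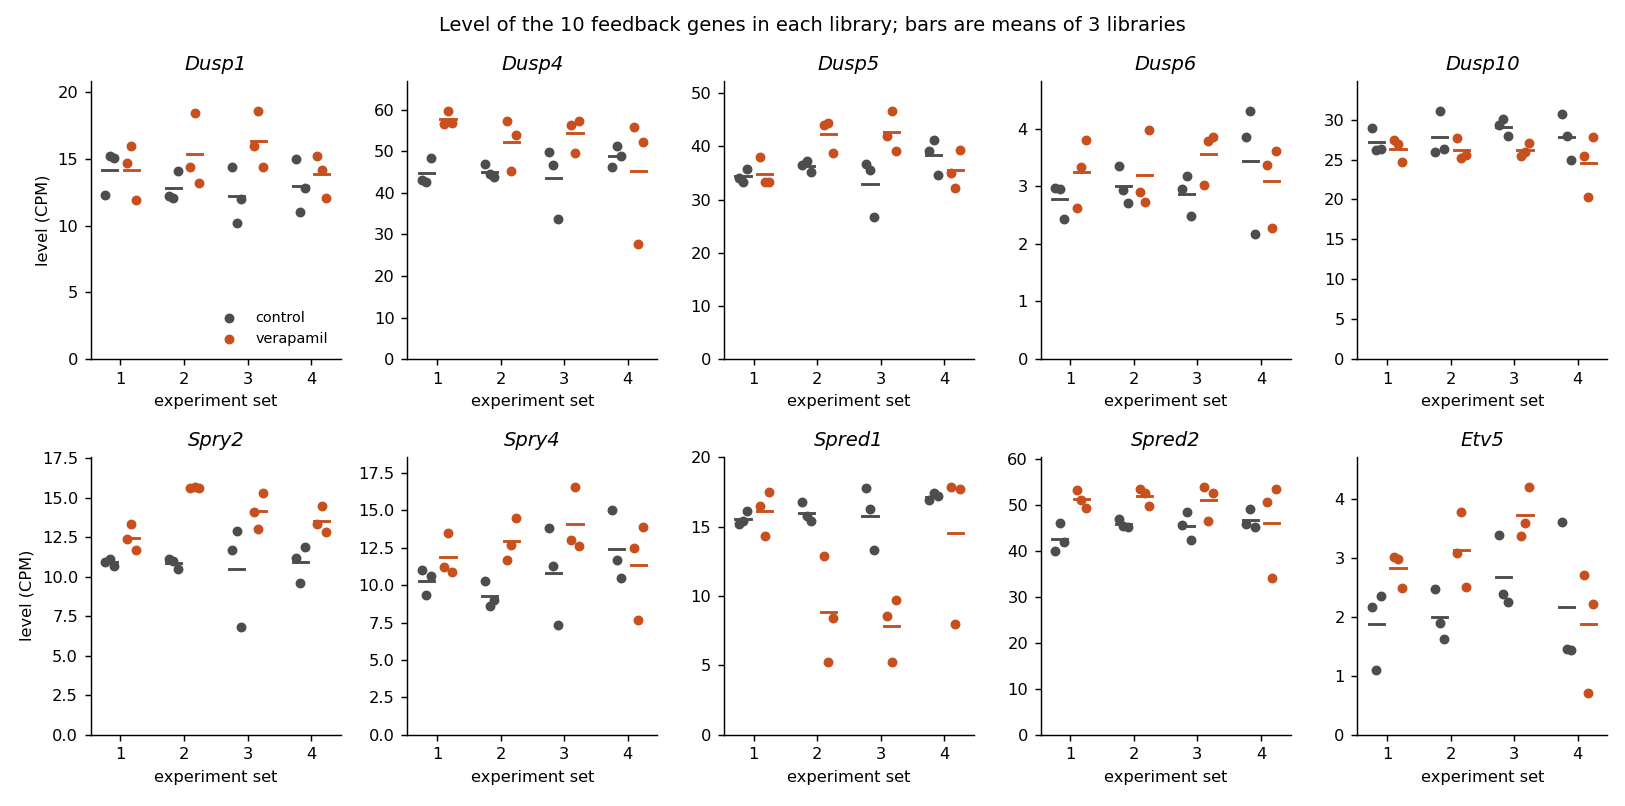
Level of each gene in CPM, the count scaled to a fixed library total (vertical axes from 0), in each of the 24 libraries, by experiment set (horizontal axes); grey points are control, orange points verapamil, and bars are means of 3 libraries. Spred1 is low in the verapamil libraries of sets 2 and 3 and in 1 of set 4, while Spry2 lies higher in verapamil in all 4 sets.

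In control cells the levels per kilobase of annotated exon (CPM per kb, mean ± SD, n = 12) set the genes in the following order. Dusp4 stood at 16.6 ± 1.68 and Dusp5 at 14.4 ± 1.42, followed by Spred2 at 9.79 ± 0.573 and Dusp10 at 9.20 ± 0.676. Spry2 reached 5.17 ± 0.711 and Dusp1 3.94 ± 0.507. Spred1 (2.38 ± 0.181) and Spry4 (2.25 ± 0.45) came next, and Dusp6 (0.966 ± 0.191) and Etv5 (0.532 ± 0.185) were the lowest. Within each of the neighboring pairs Dusp4 and Dusp5, Spred2 and Dusp10, and Spred1 and Spry4, the means differed by less than the sum of their SDs. The nuclear phosphatases Dusp4 and Dusp5 thus lay above Dusp6, the cytoplasmic ERK phosphatase, by more than their SDs. With verapamil, Dusp4 (19.1 ± 3.20) and Dusp5 (15.7 ± 1.93) remained the highest and Etv5 (0.706 ± 0.219) the lowest, and Spred1, at 1.74 ± 0.718, lay below Spry4, at 2.64 ± 0.457.

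Among the receptor-proximal inhibitors, Spry2 rose. Spry2 (ENSMUSG00000022114; GRCm38 chr14:105891947-105896819, minus strand, 2 exon blocks) encodes a membrane-associated inhibitor of receptor tyrosine kinase signaling. Its level was 6.83 at the lowest, 11.1 at the median and 12.9 CPM at the highest in the control libraries, and 11.7, 13.7 and 15.7 CPM in the verapamil libraries. All 12 verapamil libraries lay above the control median and 9 above the highest control library, with an overlap of 3 libraries. The means were 10.8 ± 1.48 and 13.9 ± 1.38 CPM (SD, n = 12), a log2 fold change of 0.36 (SE 0.075, 95% interval 0.21 to 0.52), which is 1.29-fold, with adjusted p = 0.00026 in edgeR. Spry2 remained called without any single library and under all 19 alternatives other than the fits within 1 experiment set, with log2 fold changes of 0.24 to 0.46. The 6.83 CPM came from C9, the shallowest library, and without it the other 11 control libraries still overlapped 3 verapamil libraries.

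Spry4, a paralog of Spry2, was not called. Spry4 (ENSMUSG00000024427; chr18:38586247-38601415, minus strand) ranged from 7.31 over a median of 10.5 to 15.0 CPM in the control and from 7.66 over 12.6 to 16.6 CPM in the verapamil libraries. Of the 12 verapamil libraries, 11 exceeded the control median, but 11 also lay inside the control range. Verapamil minus control gave a log2 fold change of 0.23 (SE 0.11, 95% interval 0.00 to 0.45) with adjusted p = 0.070 in edgeR. The lowest verapamil value was that of V11, and without V11, C7 or C10 in turn the gene was called, with log2 fold changes of 0.27 to 0.28 and adjusted p of 0.017 to 0.037.

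Spred1, which with Spred2 makes up the Spred genes among the members, fell. It was the member with the widest spread between verapamil libraries relative to its mean. Spred1 (ENSMUSG00000027351; chr2:117121374-117182279, plus strand) ran from 13.3 over 16.2 to 17.8 CPM in the control and from 5.26 over 11.3 to 17.9 CPM in the verapamil libraries. Of the verapamil libraries 7 lay below all controls, 4 inside the control range and 1 above it. The lowest control value was that of C9, the shallowest library. The other controls were at 15.2 CPM or more, above V2 at 14.3 CPM. The means were 16.1 ± 1.23 and 11.8 ± 4.87 CPM (SD, n = 12), so the coefficient of variation was 7.61% in control and 41.1% in verapamil. The log2 fold change was -0.45 (SE 0.17, 95% interval -0.80 to -0.088), 0.734-fold, with adjusted p = 0.029 in edgeR. The call held without any single library (log2 fold change -0.51 to -0.38) and was lost without set 2 (adjusted p = 0.15) or without set 3 (adjusted p = 0.17).

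Its relative Spred2 rose by a small amount, with an SD of 2.64 CPM in control and 5.48 CPM in verapamil libraries. Spred2 (ENSMUSG00000045671; chr11:19924375-20024026, plus strand) ran from 40.0 over 45.6 to 49.1 CPM in the control and from 34.1 over 51.8 to 54.0 CPM in the verapamil libraries. In 10 of the 12 verapamil libraries the level exceeded all controls, 1 was inside their range, and V11 lay below all of them. Over 12 libraries per group the log2 fold change was 0.15 (SE 0.058, 95% interval 0.027 to 0.27), 1.11-fold, with adjusted p = 0.031 in edgeR. The call was lost without V7, C1 or C3 in turn, with adjusted p of 0.051 to 0.056, and without V11 the adjusted p fell to 0.00025. It was also lost without experiment set 1, 2 or 3 in turn (adjusted p of 0.21, 0.14 and 0.13) and for counts summed per set (0.087).

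Among the nuclear inducible phosphatases, Dusp1 rose and Dusp4 and Dusp5 were not called. Dusp1 (ENSMUSG00000024190; chr17:26505590-26562128, minus strand), an immediate-early phosphatase of p38, JNK and ERK, ran from 10.2 over 12.6 to 15.2 CPM in the control and from 11.9 over 14.6 to 18.6 CPM in the verapamil libraries. In 5 verapamil libraries the level exceeded all controls, and the other 7 lay inside their range. This gave a log2 fold change of 0.19 (SE 0.081, 95% interval 0.029 to 0.36), 1.14-fold, with adjusted p = 0.039 in edgeR. This call is marginal, since it was lost without V2, V5, V7, V8, C1, C4, C5, C8, C9, C11 or C12 in turn, with log2 fold changes of 0.16 to 0.19 and adjusted p of 0.052 to 0.083. The Dusp1 call was also lost without experiment set 2 or 3 in turn (adjusted p of 0.16 and 0.30) and for counts summed per set (0.086). Exons of Dusp1 share 11 bases with other annotated genes. The GENCODE span given here covers all 6 annotated transcripts. The RefSeq start used for the promoter sequence of Dusp1 lies inside this span and not at its end.

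Dusp4 (ENSMUSG00000031530; chr8:34807297-34819894, plus strand), a nuclear phosphatase of ERK and JNK, ran from 33.7 over 46.5 to 51.3 CPM in the control and from 27.6 over 56.1 to 59.7 CPM in the verapamil libraries. In 9 verapamil libraries the level exceeded all controls, and V11 lay below all of them. The log2 fold change was 0.20 (SE 0.090, 95% interval 0.017 to 0.39), with adjusted p = 0.053 in edgeR. Without V5, V11, C7 or C11 in turn the gene was called, with log2 fold changes of 0.21 to 0.26 and adjusted p of 0.00056 to 0.049, the lowest being that without V11. Dusp5 (ENSMUSG00000034765; chr19:53529109-53542431, plus strand), a nuclear phosphatase specific for ERK, ran from 26.8 over 35.6 to 41.2 CPM in the control and from 32.2 over 39.0 to 46.7 CPM in the verapamil libraries. In 4 verapamil libraries the level exceeded all controls, and the other 8 lay inside their range. Its log2 fold change was 0.13 (SE 0.067, 95% interval -0.010 to 0.27), with adjusted p = 0.099 in edgeR, and no single library changed this. Of its exon bases, 547 are shared with an annotated antisense gene, and reads were counted with a strand setting not given in the sources used here.

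Dusp6, the cytoplasmic ERK phosphatase often used as a gauge of ERK activity, gave no detectable difference at this depth. Dusp6 (ENSMUSG00000019960; chr10:99263231-99267489, plus strand) ran from 2.17 over 2.96 to 4.31 CPM in the control and from 2.27 over 3.35 to 3.98 CPM in the verapamil libraries. All 12 verapamil libraries lay inside the control range. The log2 fold change was 0.11 (SE 0.11, 95% interval -0.11 to 0.34), with adjusted p = 0.38 in edgeR, and the interval spans 0.924-fold to 1.27-fold. No alternative called it.

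Dusp10, the phosphatase directed at p38 and JNK rather than ERK, fell slightly. Dusp10 (ENSMUSG00000039384; chr1:184013302-184075636, plus strand) ran from 24.9 over 28.0 to 31.1 CPM in the control and from 20.3 over 25.8 to 27.8 CPM in the verapamil libraries. All 12 verapamil libraries lay below the control median, but 10 remained inside the control range. The log2 fold change was -0.12 (SE 0.051, 95% interval -0.22 to -0.013), 0.921-fold, with adjusted p = 0.046 in edgeR. The call was lost without V3, V5, V6, V7, V10, V11, C1, C5, C7, C8, C9, C10 or C11 in turn, with log2 fold changes of -0.12 to -0.10 and adjusted p of 0.052 to 0.084. Leaving out any single experiment set also lost the call (adjusted p of 0.071 to 0.16).

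Etv5 had the largest positive log2 fold change of the group and did not pass the test. Etv5 (ENSMUSG00000013089; chr16:22381309-22439719, minus strand) ran from 1.10 over 2.21 to 3.61 CPM in the control and from 0.718 over 3.01 to 4.22 CPM in the verapamil libraries. In 11 verapamil libraries the level exceeded the control median and in V11 it was below all controls. For Etv5 the log2 fold change was 0.41 (SE 0.21, 95% interval -0.017 to 0.83), with adjusted p = 0.087 in edgeR. Without V11, C7 or C10 in turn it was called, with log2 fold changes of 0.48 to 0.50 and adjusted p of 0.012 to 0.047.

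**Figure D2:**
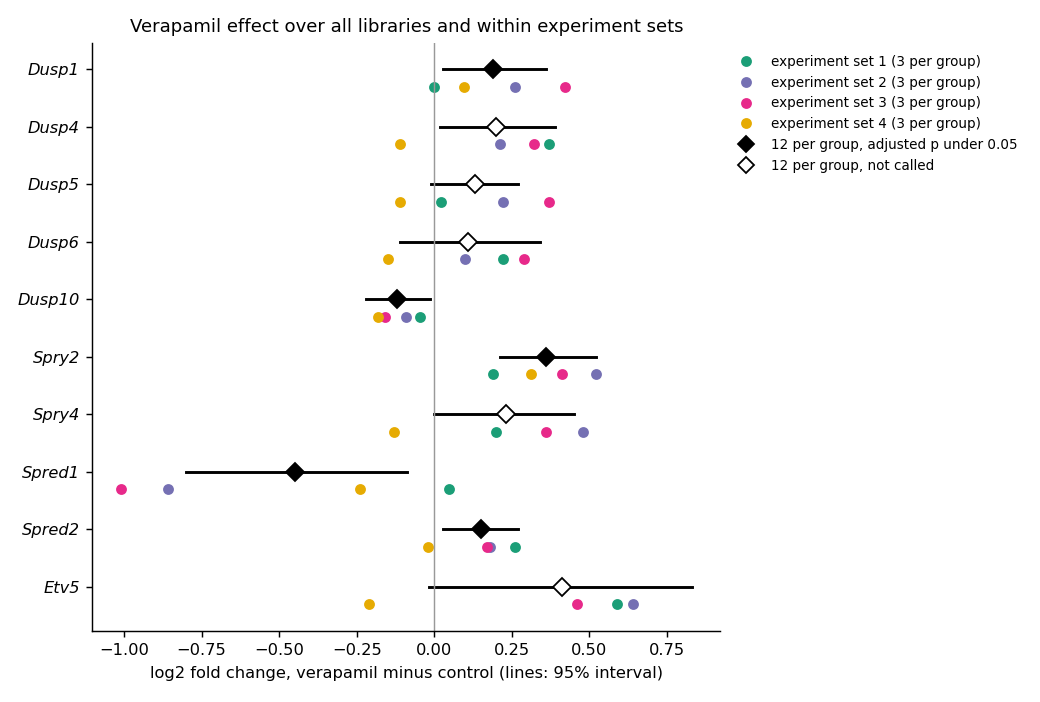
Log2 fold change of verapamil minus control (horizontal axis) for each gene; diamonds are the fits over 12 libraries per group with 95% intervals, filled where the adjusted p is under 0.05, and colored points are the values within each experiment set. Spry2 is above 0 in all 4 sets, Spred1 spans -1.01 to 0.047, and 6 of the genes with positive estimates fall below 0 in set 4.

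Whether the response was alike across experiment sets was examined next. For Spry2 the log2 fold changes were 0.19, 0.52, 0.41 and 0.31 in sets 1 to 4, and for Dusp10 -0.046, -0.09, -0.16 and -0.18. Both genes thus kept their sign in all 4 sets. Within single sets Spry2 was called in sets 2 and 3 (adjusted p = 0.0063 and 0.029 in edgeR). It was not called in sets 1 and 4 (0.47 and 0.17), and Dusp10 was called in no set. Spred1 gave 0.047 in set 1 (16.1 ± 1.68 against 15.6 ± 0.474 CPM, n = 3 each) but -0.86 in set 2 (8.85 ± 3.81 against 16.0 ± 0.684 CPM) and -1.01 in set 3 (7.85 ± 2.31 against 15.8 ± 2.31 CPM), with -0.24 in set 4. Dusp4 gave 0.37, 0.21, 0.32 and -0.11, Spry4 0.20, 0.48, 0.36 and -0.13, and Etv5 0.59, 0.64, 0.46 and -0.21. Set 4 holds V11, the lowest verapamil library for Dusp4, Dusp5, Dusp6, Dusp10, Spry4, Spred2 and Etv5. A test of the interaction between experiment set and treatment called none of the 10 genes in edgeR, against 9.72% of all genes. In that test the lowest unadjusted p were those of Dusp5 (p = 0.032, adjusted p = 0.15) and Spred1 (p = 0.038, adjusted p = 0.16). A difference between sets is therefore not shown for any of the 10 genes. 

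When the counts were summed per set and group, leaving 4 sums against 4, Spry2 passed in edgeR (log2 fold change 0.34, SE 0.078, adjusted p = 0.011), and it was the single member to do so, against 41.7% of all genes. The 4 verapamil sums of Spry2 lay above all 4 control sums and those of Dusp10 below all 4, and for both an exact permutation test (two-sided, n = 4 per group) gave p = 0.0286 before adjustment, the smallest p this design allows. Spred1, whose sums overlapped, gave p = 0.114 in the same exact test. The share of all genes whose verapamil sums separate from the control sums was not determined. The separation of Spry2 and Dusp10 therefore cannot be set against that of all genes.

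The libraries also differed in how level relates to transcript composition, and Spred1 moved with that measure. For each library, the deviation of each gene's log2 level from the control mean was correlated across genes with the GC content of its longest transcript, as a description over genes that are not independent. The mean correlation was -0.030 to 0.032 in the control sets, which average near 0 by construction because the control mean is the reference. It was 0.19 in verapamil set 1, 0.54 in set 2, 0.55 in set 3 and 0.16 in set 4. Within set 4 it was 0.36 in V11 against 0.036 in V10 and 0.076 in V12. Single control libraries ran from -0.18 (C12) to 0.16 (C5), a range that holds V3 (0.066), V10 and V12. Spred1 has the lowest GC content of the 10 (41.2%; the others 46.2% to 56.7%) and the longest exon span (6784 bp; the others 2087 to 4755 bp). It was at 5.26 to 12.9 CPM in the 7 verapamil libraries whose correlation was 0.36 or more, and at 14.3 to 17.9 CPM in the other 5. When this per-library trend on GC content and length was removed as an offset, the log2 fold change of Spred1 was -0.029 (adjusted p = 0.79), and with the slopes as covariates it was 0.27 (adjusted p = 0.0079), the opposite sign. Dusp1, Dusp4 and Dusp5, with GC contents of 54.0% to 56.7%, went to -0.015, -0.031 and -0.18 with the offset, the last with adjusted p = 0.016. With slopes as covariates Dusp1 was at 0.023 (adjusted p = 0.88) and Dusp4 at 0.41 (adjusted p = 5.1e-06). Spry2 (0.46 and 0.24) and Spred2 (0.18 and 0.24) kept their sign and their calls under both. With the slopes Spry2 was close to the threshold (adjusted p = 0.044 in edgeR). Dusp10 went to -0.055 with the offset (adjusted p = 0.38) and to -0.057 with the slopes (adjusted p = 0.43) and lost its call under both. Spry4 was called higher with the offset (0.28, adjusted p = 0.019). The 3 members called higher with the offset were thus Spry2, Spred2 and Spry4, and the 1 called lower was Dusp5. Whether the trend belongs to the treatment or to the preparation of these libraries cannot be told apart, since all libraries at 0.36 or more are verapamil libraries.

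**Figure D3:**
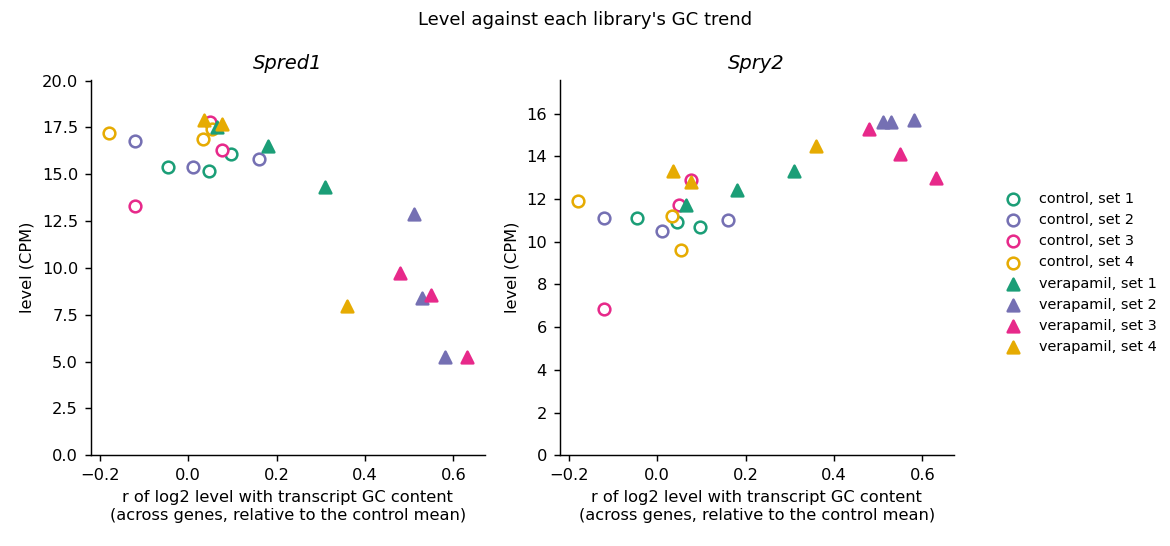
Level in CPM (vertical axes from 0) of Spred1 and Spry2 in each library against the correlation, across genes, of that library's deviation from the control mean with transcript GC content (horizontal axes); circles are control, triangles verapamil, and colors are experiment sets. The 7 verapamil libraries at 0.36 or more hold Spred1 between 5.26 and 12.9 CPM. Spry2 lies between 13.0 and 15.7 CPM in them and between 11.7 and 13.3 CPM in the other verapamil libraries.

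**Figure D4:**
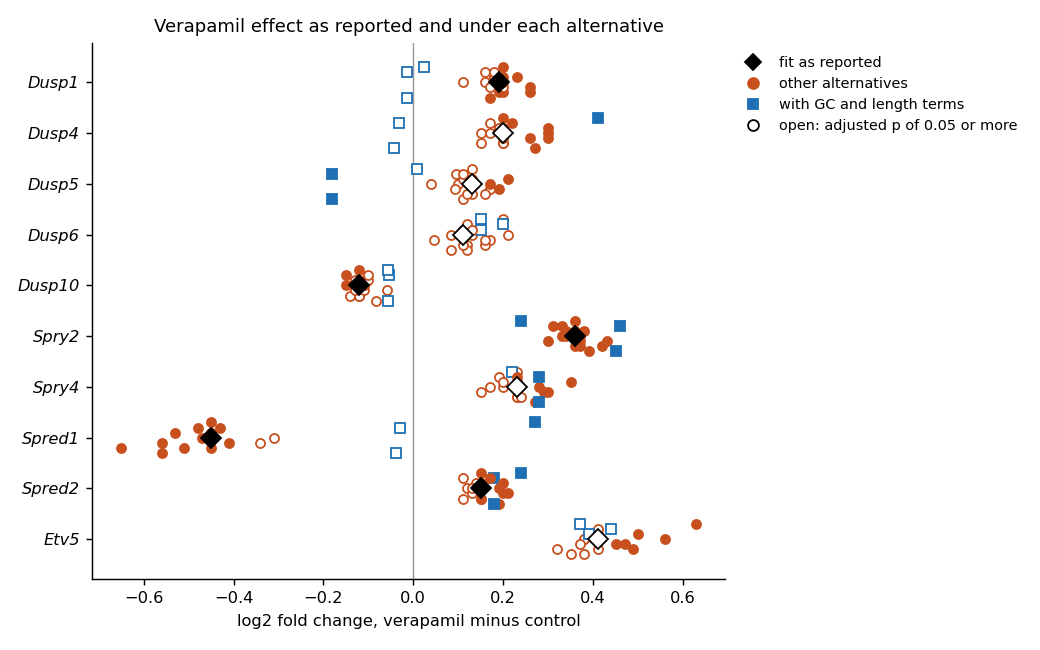
Log2 fold change of each gene (horizontal axis) as reported (black diamonds) and under each alternative over several sets (orange points, or blue squares where GC and length terms were included); filled symbols have an adjusted p under 0.05. Spry2 is filled throughout at 0.24 to 0.46, and both ends of that range are blue squares. The blue squares of Spred1, Dusp1, Dusp4 and Dusp5 are among those that leave the other symbols.

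The members did not vary as a single block. As a description, Pearson correlations of the deviations of log2 CPM from the group mean over 24 libraries, which share library depth and composition, ran from -0.48 (Dusp1 with Spred1) to 0.82 (Dusp4 with Spred2). Without V11 and C9 the latter was 0.32 over 22 libraries. Dusp4 and Spred1 gave 0.96 among the 12 control and 0.44 among the 12 verapamil libraries. Dusp5 and Spred1 gave 0.86 among control and -0.55 among verapamil libraries. Spry4 and Etv5 gave 0.65 over 24 libraries and 0.53 without V11 and C9. Among genes averaging 5 CPM or more, those most like Spred1 were Plcl1 (r = 0.98), Vav3 (0.97) and Sp4 (0.97). Those most like Spry2 were Babam1 (0.80), Gm18032 (0.80) and Rhov (0.77), and those most like Dusp4 were Wdfy3 (0.92), Shc3 (0.91) and Cblb (0.91). Dusp1 was most like Gm8909 (0.77), Vps37b (0.73) and Pck2 (0.71), Dusp5 most like Zbtb22, Pxn and Wnk2 (0.82 each), and Dusp6 most like Mapk10 (0.70), Kctd12 (0.63) and Tbc1d25 (0.63). For Dusp10 these were Klhl18 (0.83), Zbtb4 (0.82) and Zmiz1 (0.81), for Spry4 Mtss1l (0.83), Cdh23 (0.80) and Rassf3 (0.79), for Spred2 Pdcd6ip (0.91), Cyfip2 (0.91) and Nav1 (0.90), and for Etv5 Kansl3 (0.83), Hip1 (0.83) and Shisal1 (0.82).

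The close relatives of the members were read alongside. Of 4 other Sprouty, Spred and PEA3 genes tested, 3 rose and 0 fell, with a median log2 fold change of 0.29 against 0.00 over all genes. Spry1, the nearest relative of Spry2, rose from 11.6 ± 1.18 to 15.1 ± 1.85 CPM (SD, n = 12; log2 fold change 0.38, adjusted p = 7.6e-05 in edgeR), Spred3 by 0.22 (adjusted p = 0.0090) and Etv4, the partner of Etv5 in the PEA3 group, by 0.35 (adjusted p = 0.0084). Etv1, the third PEA3 gene, was at 208.0 ± 7.91 and 190.0 ± 59.7 CPM (adjusted p = 0.39). With the GC and length offset all 3 lost their call, with Spry1 at 0.095 (adjusted p = 0.23), Spred3 at 0.073 (adjusted p = 0.35) and Etv4 at -0.055, and Etv1 was the 1 of the 4 called higher (0.40, adjusted p = 5.6e-10). Of 3 other MAPK phosphatases tested, Dusp7 rose by 0.14 (adjusted p = 0.028), Dusp16, a JNK phosphatase, fell by 0.63 (from 3.94 ± 0.635 to 2.52 ± 0.559 CPM, adjusted p = 5.0e-05), and Dusp8 was at 0.02 (adjusted p = 0.73). With the offset all 3 were called lower, Dusp7 at -0.15 (adjusted p = 0.025). Over all genes tested the offset gave 2876 higher and 4162 lower calls.

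Transcripts outside the members that are known to follow ERK activity moved in both directions. Of 11 tested, 5 rose and 3 fell, against 31.2% and 31.6% of all genes, with a median log2 fold change of 0.27. With the GC and length offset the counts were 3 higher and 5 lower, and with the slopes as covariates 3 and 2. Over all genes the offset gave 2876 higher and 4162 lower and the slopes 2603 and 1743, against 3836 and 3890 as reported. For the sums per set, all genes gave 3005 and 2124. Counts of the lists below under these alternatives are to be read beside these all-gene counts. Ccnd1, the G1 cyclin, rose from 0.763 ± 0.316 to 2.34 ± 0.783 CPM (log2 fold change 1.59, adjusted p = 2.2e-06 in edgeR), and Fosl2, an AP-1 subunit, from 4.13 ± 0.748 to 11.5 ± 2.34 CPM (1.47, adjusted p = 1.9e-10). Egr1, the immediate-early transcription factor, fell from 24.5 ± 2.04 to 15.8 ± 2.68 CPM (-0.63, adjusted p = 9.6e-07), with all 12 verapamil libraries below all controls, and Epha4 fell by 1.05 on the log2 scale (adjusted p = 9.3e-05). Fosl2 and Myc (0.57, adjusted p = 3.2e-09, named after its values were seen) lay above all controls in all 12 verapamil libraries. Such a complete separation was found in 10.1% of all genes tested. Of the genes named here, Epha4 lost its call with the slopes as covariates (-0.48, adjusted p = 0.10).

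Of 7 genes in the list of ERBB and FGF ligands, 5 fell and 1 rose. This list includes Fgf12 (-0.32) and Fgf13, which fell and which encode intracellular FGF-family proteins rather than secreted ligands. The one that rose was Hbegf, the heparin-binding EGF-like ligand, from 2.26 ± 0.527 to 6.33 ± 0.780 CPM (log2 fold change 1.49, adjusted p = 4.7e-11), and Nrg1 (-1.06), Fgf13 (-0.64) and Fgf1 (-0.54) were among those that fell. The counts were 3 lower and 2 higher with the GC and length offset, 1 and 1 with the slopes, and 3 and 1 for the sums per set. Fgf1 lost its call under the offset (-0.36) and the slopes (-0.40), and Fgf13 under the slopes (-0.36). Of 12 receptor tyrosine kinases, 1 rose and 5 fell: Kit rose from 99.1 ± 9.90 to 151 ± 16.9 CPM (0.61, adjusted p = 3.1e-08), whereas Egfr (-0.92) and Ntrk2 (-0.72) were among those that fell. With the GC and length offset 4 of the receptors were called higher and 7 lower, and with the slopes 4 and 3, where Egfr (-0.48, adjusted p = 0.22) was no longer called. Of 25 RAS adaptors, exchange factors and GTPase-activating proteins, 5 rose and 13 fell (median -0.29), with Rasa1 at -0.92, Rasa2 at -0.79 and Rasal2 at -0.64. With the slopes as covariates these counts were 11 and 3, with Rasa1 at -0.054 (adjusted p = 0.55), Rasa2 at 0.35 and Rasal2 at 0.038, and for the sums per set they were 3 and 5.

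Of 14 RAF, MEK, ERK and scaffold genes, 6 rose and 4 fell (median 0.082). Braf (-0.69), the scaffold Iqgap1 (-0.52) and Shoc2 (-0.42) fell, and the scaffold Ksr1 rose by 0.39. With the slopes as covariates Braf was at -0.013 (adjusted p = 0.88) and 2 genes were higher and 1 lower. With the GC and length offset Shoc2 was at -0.037 (adjusted p = 0.63) and Ksr1 at 0.22 (adjusted p = 0.10). Of 7 kinases downstream of ERK, 3 rose and 3 fell, among them Mknk1 (0.53), Rps6ka3 (-0.96), Rps6ka5 (-0.75) and Rps6ka2 (-0.49). With the slopes Rps6ka3 was at -0.12 (adjusted p = 0.17) and Rps6ka5 at -0.017 (adjusted p = 0.93), and for the sums per set Rps6ka3 was not called (adjusted p = 0.058). The counts were 1 and 4 with the offset and 1 and 1 with the slopes. Of 8 ETS partners and serum response genes, 2 rose and 1 fell: Srf by 0.21, Cic, which encodes Capicua, by 0.10, and Ets1 by -0.82. Srf and Cic were at -0.36 and -0.15 with the GC and length offset, under which 1 gene of the list was higher and 4 lower, and Ets1 was at -0.29 (adjusted p = 0.23) with the slopes. Of 11 p38 and JNK pathway kinases, the branch that Dusp10 and Dusp16 act on, 4 rose and 5 fell, with Mapk12 at 0.37, Mapk8 at -0.34, Map2k4 at -0.31 and Map2k6 at -0.95, and Mapk8 was at 0.17 with the offset (adjusted p = 0.00039), where Mapk12 was at 0.036 (adjusted p = 0.73) and Map2k4 at -0.074 (adjusted p = 0.27).

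**Figure D5:**
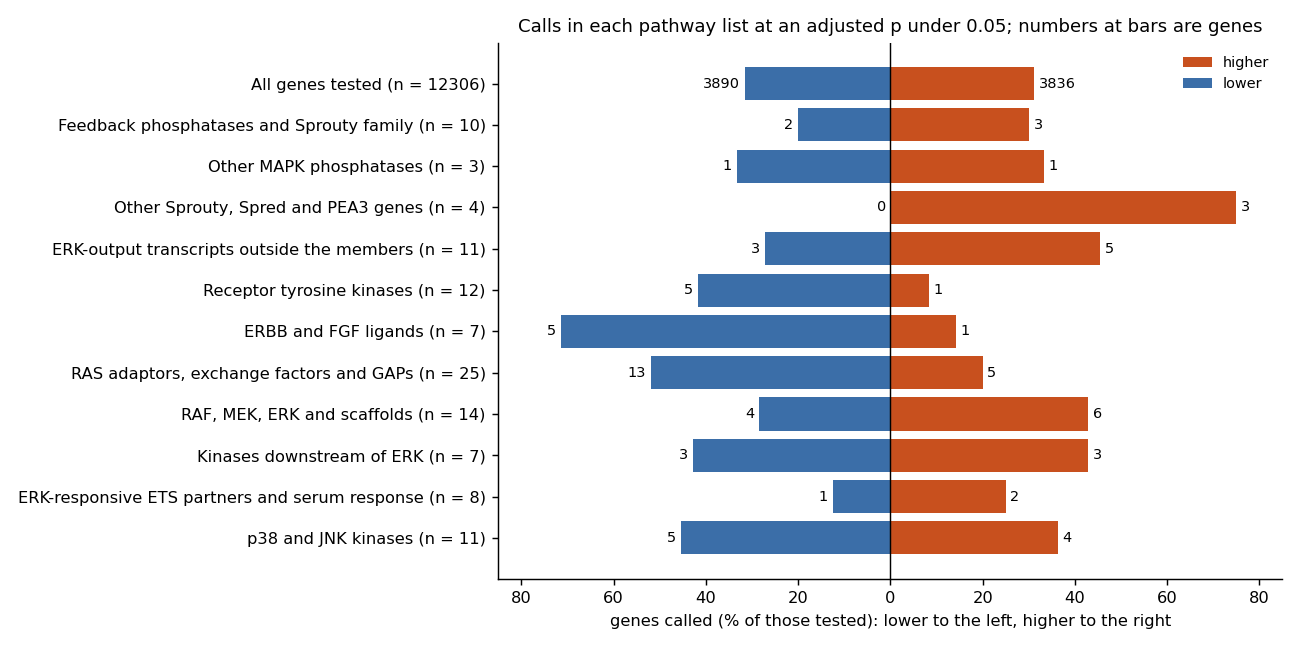
Share of tested genes called higher (orange, to the right) and lower (blue, to the left) in each list of pathway genes, in percent, with the number of genes at each bar. The 10 feedback genes give 3 higher and 2 lower, against 31.2% and 31.6% of all genes in the top bar. The list of ERBB and FGF ligands includes Fgf12 and Fgf13, which encode intracellular proteins.

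The identity of the cells was checked with marker lists. Of 13 β-cell markers 12 were in the table, and their summed level was 6290 to 8240 CPM in control and 5050 to 6890 CPM in verapamil libraries. Of these 12, 2 rose and 7 fell, with Mafa at a log2 fold change of 0.85, Slc30a8 at -0.88, Ins2 at -1.05 and Pcsk1 at -2.26. No marker of immune cells was in the table. Of the endothelial markers 1 of 5 was present, Kdr, at 0.562 to 3.77 CPM in control and 7.18 to 18.1 CPM in verapamil libraries. Of the fibroblast markers 1 of 6 was present, Pdgfra, at 0.67 to 1.45 and 0.0923 to 1.20 CPM. Their part in the values of the feedback genes was not tested. In these bulk libraries, fewer cells that express a gene and less of its RNA per cell cannot be told apart.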

How the data were processed

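MIN6 libraries, 12 control and 12 verapamil, were analysed from the raw read counts per gene that the authors deposited. By the submitters' processing notes the authors used bcl2fastq 2.20, Trimmomatic 0.39, HISAT2 2.1.0 on GRCm38 and HTSeq 0.9.1; strand setting and annotation release: not given in the sources used here. Library kit and RNA input are given differently in the labels and in the paper. The authors also deposited columns of their own edgeR comparison (average log2 CPM, p-value and adjusted p-value, the log10 of a p-value, and fold change as a ratio and as log2), which were not used. The deposited counts were filtered (filterByExpr, minimum count 10), scaled by TMM and fitted by the quasi-likelihood method of edgeR 4.0.16 (R 4.3.3) over 24 libraries without covariates, with Benjamini-Hochberg adjustment over 12306 genes and a threshold of 0.05. CPM are TMM-scaled, and log2 CPM use a prior count of 2. Each standard error was derived from the log2 fold change and its F statistic. Totals of 12590476 to 44806556 counts per library set the precision, and counting error weighs most on Dusp6 and Etv5. Coordinates, exon lengths and GC contents are from GENCODE M21 on GRCm38, matched for 12308 genes, and promoter windows from RefSeq on GRCm38.p6.

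Alternatives used DESeq2 1.42.0, limma 3.58.1, other scaling, filters, blocks, offsets and subsets, and the exact test used scipy 1.17.1. The fit was tested on simulated data. The members and lists were chosen with earlier results of these data known. Named are all 10 members, up to 4 called genes per list with the largest change, averaging 1 CPM or more, and the 3 genes most like each member; further list genes (Etv1, Dusp8 and Myc) were added after their values were seen. Some genes of the lists are not reported here. The fits without single libraries, without V11 and C9, and without a block over 20 libraries were added after seeing the data. Proteomic, imaging and zebrafish experiments were not analysed here.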

Additional observations from a re-analysis of the deposited data

How the results depend on the processing

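In the 4 sets of 3 per group, 0, 1, 3 and 0 members were called higher and 0, 1, 1 and 0 lower. Over all 12306 genes the same fits called 723, 3109, 2861 and 1019 higher and 627, 3457, 3281 and 646 lower. Against 3 higher and 2 lower as reported, the counts were 4 and 1 with DESeq2 size factors, 7 and 1 with upper-quartile factors, 1 and 2 with library totals, 1 and 2 with a mean of at least 5 CPM (a filter that leaves out Dusp6 and Etv5), 6 and 1 with limma voom with quality weights, 1 and 0 for counts summed per set, and 3 and 1 with the GC and length offset, with and without the experiment set as replicate block. With that offset Dusp1, Spred1 and Dusp10 lost their calls, and Spry4 (higher) and Dusp5 (lower) gained one. The counts were 4 and 0, Spred1 among the 4 higher, with GC and length slopes as covariates, a fit in which the slopes inflate the variance of the treatment term 1.99 times. Without experiment sets 1, 2, 3 and 4 in turn they were 2 and 1, 1 and 0, 1 and 0, and 7 and 1. Leaving out 1 library gave 1 to 6 higher (1 without V7 or C1, 5 without C10, 6 without V11 or C7) and 1 to 2 lower, and leaving out V11 and C9 gave 5 and 1. The cause was not tested. Over all genes, 3890 lower calls became 2124 for the sums, 1743 with the slopes and 2518 without set 2. Across the alternatives over several sets 39.6% to 59.9% of calls were higher, 49.7% as reported. Higher and lower calls over all genes were 4396 and 3489 with upper-quartile factors, 3479 and 4185 with library totals and 4065 and 4266 with voom. They were 3005 and 2124 for the sums, 2876 and 4162 with the offset and 2603 and 1743 with the slopes. Without sets 1 to 4 in turn they were 3780 and 3870, 2852 and 2518, 3015 and 2834, and 3932 and 3939. The largest shift of the median of all genes was -0.073.

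The experiment set as replicate block gave 3 higher and 1 lower, with Dusp10 at adjusted p = 0.053. The title numbers as replicate block, over 20 libraries, gave 5 and 1, against 7 and 2 without the block over the same 20. Deviations of libraries with the same number correlated from -0.118 to 0.21, so the numbers were not taken to pair them. Signs turned as follows. With the GC and length offset the log2 fold changes were -0.015 for Dusp1, -0.031 for Dusp4, -0.18 for Dusp5, -0.15 for Dusp7, -0.055 for Etv4, -0.36 for Srf, -0.15 for Cic and 0.17 for Mapk8. With the replicate block added to it these were -0.014, -0.042, -0.18, -0.15, -0.055, -0.39, -0.16 and 0.17. With the slopes as covariates Spred1 was at 0.27, Etv4 at -0.0098, Rasa2 at 0.35, Rasal2 at 0.038, Shoc2 at 0.15, Mapk8 at 0.13 and Map2k4 at 0.058. Within set 1, Spred1 was at 0.047, Cic at -0.01, Mapk8 at 0.021 and Map2k4 at 0.018. Within set 4, Dusp4 and Dusp5 were at -0.11, Dusp6 at -0.15, Spry4 at -0.13, Spred2 at -0.022, Etv5 at -0.21, Dusp7 at -0.076 and Ksr1 at -0.02. Of the other values of the named list genes under these alternatives, 668 kept their call and 127 lost it. Depth limits Dusp6 and Etv5 most, at 18 to 172 reads per library.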
